A study of Mus with 15 samples.

Results

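Transcripts that the mouse abdominal aorta expressed in every animal were compared between mice infused with angiotensin II (AngII) and mice infused with saline (Control). A transcript was included when its FPKM, a level scaled for transcript length and mapped fragments, reached 1 in all 10 mice. Of 126719 transcripts quantified in both groups, 15084 met this limit. Of these, 12855 carried an Ensembl identifier, out of 110082 listed, and 2229 were reconstructed by StringTie from the reads, out of 16637 listed. The 2 kinds are reported apart, because a reconstructed transcript is a model built from these libraries. The 10 mice are among 15 with sequenced aortas in this series, and the 5 others, which also received Qingda granule, were quantified on another transcript list and are not analysed here.

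All mice were wild-type male C57BL/6 mice, 8 to 10 weeks old. Control mice (n = 5) received saline and AngII mice (n = 5) received AngII from an osmotic pump for 14 days, and both groups were given water by gavage. The treatment labels give 500 ng/kg/min of AngII for each AngII mouse, and a second label gives 500 to 504 ng/kg/min. Mice are numbered here 1 to 5 within each group, in the order in which they are listed, and no number links a Control mouse with an AngII mouse. The files do not pair identifiers with gene names, and the table of genes at hand pairs no Ensembl transcript with a gene. The tissue was therefore not checked against marker genes, results are given by identifier, and identifiers are limited to 2 in each direction.

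AngII is the effector peptide of the renin-angiotensin system. Renin and angiotensin-converting enzyme produce it from angiotensinogen, and it constricts arteries and stimulates the release of aldosterone. Prolonged infusion raises blood pressure and is known to thicken the wall, with growth of smooth muscle cells, deposition of matrix and entry of leukocytes. The aorta as dissected holds smooth muscle, endothelium, fibroblasts and often adherent fat, so that in bulk RNA fewer cells of a type and less RNA per cell cannot be told apart.

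The 15084 transcripts made up most of the measured RNA in both groups. They held 84.0 to 85.9% of the summed FPKM in Control mice (median 84.7%) and 83.6 to 85.8% in AngII mice (median 84.9%). The reconstructed ones alone held 5.85 to 6.61% in Control mice and 5.24 to 6.39% in AngII mice. Summed FPKM ran from 476292 to 547311 over the 10 mice, and from 25675 to 29249 transcripts reached 1 FPKM in a mouse. Counts of reads are unknown, which leaves the spread between mice as the error of every value below.

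The 5 most abundant transcripts, all Ensembl, took 8.08 to 12.4% of summed FPKM in Control mice and 6.25 to 10.4% in AngII mice. The most abundant was 16837 ± 3980 FPKM (SD, n = 5) in Control mice and 16009 ± 2660 FPKM (SD, n = 5) in AngII mice. On the scale used for all differences here, AngII minus Control of log2(FPKM + 1), it differed by -0.06, with a 95% interval from -0.58 to 0.46. The other 4 differed by -0.21 to -0.15 on that scale, and unadjusted limma p-values of the 5 ran from 0.364 to 0.808. At the top of the range the groups therefore overlapped, and a change of 2-fold lay outside all 5 intervals.

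Across all 15084 transcripts, the question was which of them AngII infusion changed and by how much. Differences were tested with limma-trend, fitted on the 27327 transcripts that reached 1 FPKM in 5 or more mice, so that p-values were adjusted over all of these. A transcript counted as differentially expressed (DET) when its change on the log2(FPKM + 1) scale was 2-fold or more with an unadjusted p below 0.05. In AngII mice, 46 of the 15084 were upregulated (0.305%) and 39 were downregulated (0.259%). The same rule called 0.64% of the 27327 fitted transcripts as higher and 0.856% as lower. DETs were thus less frequent among transcripts present in every mouse than in the whole fit, and the 85 made up 20.8% of all 409 DETs while the 15084 made up 55.2% of the transcripts fitted. The limit of 1 FPKM in every mouse bears on this comparison. Each of the other 129 upregulated DETs was under 1 FPKM in at least 1 Control mouse, and each of the other 195 downregulated DETs was under it in at least 1 AngII mouse.

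After Benjamini-Hochberg adjustment, 1 of the 15084 transcripts had an adjusted p below 0.05, against 0.00732% (2 transcripts) of those fitted. An unadjusted p below 0.05 was found for 575 of them (3.81%), against 4.75% of those fitted. With no difference between groups, a share of 0.05 of transcripts is expected to have a p below 0.05, and both shares lay below that. Of the 575, 341 were higher in AngII mice and 234 were lower. This split depended on scale: with each mouse divided by its 75th percentile, 501 were higher and 172 lower, a shift from 59.3% to 74.4% higher. The median difference was 0.03 as deposited and 0.06 with that scaling. The 5 AngII values lay above all 5 Control values for 65 transcripts (0.431%, against 0.41% of those fitted) and below all of them for 42 (0.278%, against 0.322%).

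**Figure D1:**
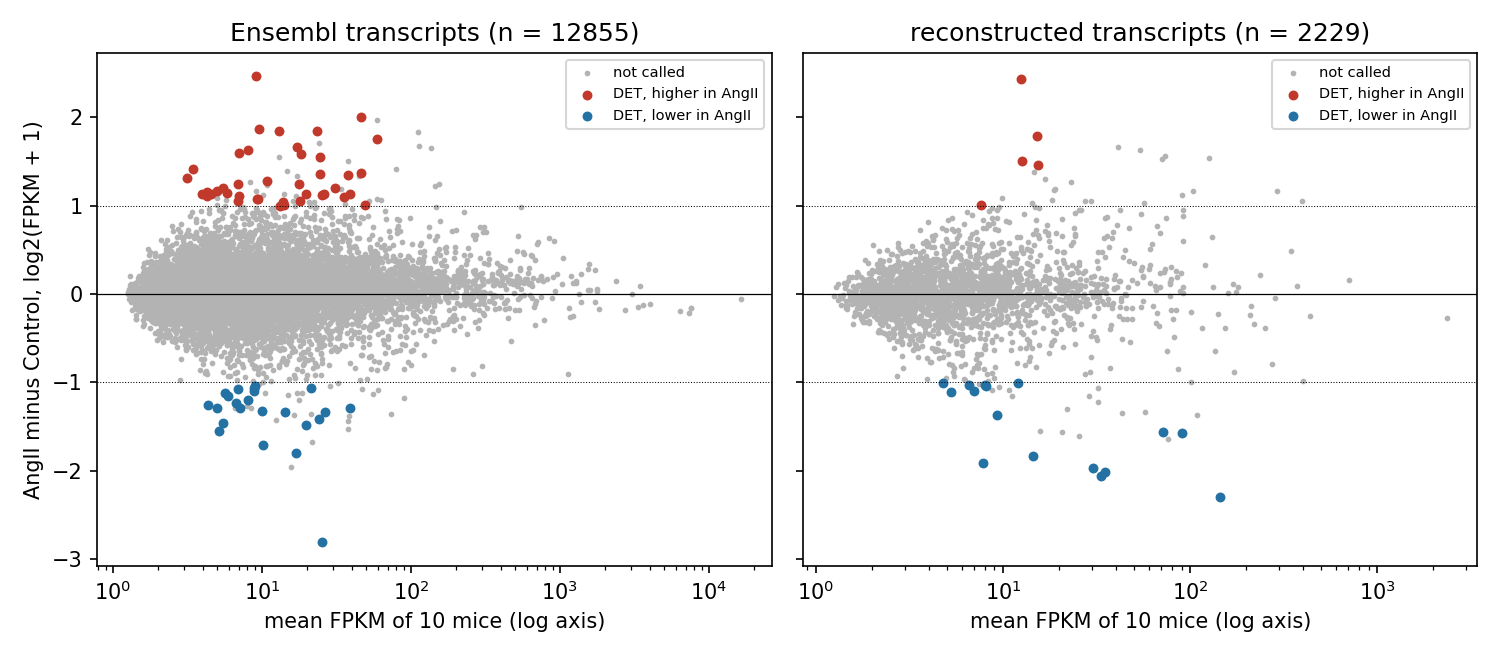
Difference between AngII and Control mice (mean of 5 minus mean of 5, log2(FPKM + 1)) against mean FPKM of the 10 mice on a log axis, 1 point per transcript, Ensembl on the left and reconstructed on the right. Red points are the 41 and 5 upregulated DETs, blue points the 23 and 16 downregulated DETs, grey points all others, and dotted lines mark a 2-fold change.

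Most differences were small and were bounded by the data. The quartiles of the 15084 differences were -0.11 and 0.16 on the log2(FPKM + 1) scale, and the lowest and the highest 1% lay beyond -0.82 and 0.90. The median standard error was 0.21 and the median half-width of the 95% interval was 0.46. For 12089 transcripts (80.1%) the whole interval lay within a 2-fold change in either direction. For these transcripts a change of 2-fold or more on this scale fell outside the interval, each taken by itself and with no adjustment for their number. With a pseudocount of 0.1, which compresses low values less, the share was 71.7%. The remaining transcripts, the 85 DETs among them, had an interval that reached 2-fold on at least 1 side, and for those that were not called this leaves a 2-fold change undecided at 5 mice per group.

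Among Ensembl transcripts, 41 of 12855 were upregulated (0.319%) and 23 downregulated (0.179%). Among reconstructed transcripts, 5 of 2229 were upregulated (0.224%) and 16 downregulated (0.718%). Over all fitted transcripts, Ensembl DETs were 117 up (0.555% of 21069) and 125 down (0.593%). Reconstructed DETs over all fitted were 58 up (0.927% of 6258) and 109 down (1.74%), so each share was higher there than under the limit. The share of DETs that were up was thus 64.1% against 48.3% over all fitted for Ensembl transcripts, and 23.8% against 34.7% for reconstructed ones, and neither difference was tested. With each mouse scaled by its 75th percentile, DETs were 50 up and 23 down for Ensembl and 7 up and 14 down for reconstructed transcripts. With 1 mouse left out, reconstructed DETs ran from 6 to 17 up and from 11 to 25 down, and Ensembl DETs from 41 to 69 up and from 22 to 35 down. Reconstructed DETs up rose by over 1.5 times without any mouse but Control mouse 1 or 2, to 17 (with 23 down) without Control mouse 5, and they outnumbered those down, 13 to 12, without Control mouse 3. Ensembl DETs up rose that far without AngII mouse 3 (69) or Control mouse 4 (62). Those down rose that far without Control mouse 5 for Ensembl transcripts (35) and without AngII mouse 3 for reconstructed ones (25). Reconstructed transcripts were also noisier, with a median SD between mice of a group of 0.39 against 0.31 on the log2(FPKM + 1) scale, and lower in level, with a median of 5.34 against 7.73 FPKM. Their 95% interval stayed within 2-fold for 70.4%, against 81.8% of Ensembl transcripts.

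Within the limit of 1 FPKM in every mouse, the share of DETs differed by level. Between a mean of 1 and 5 FPKM, 10 of 5460 transcripts were DETs (0.183%), and between 5 and 20 FPKM, 51 of 6359 (0.802%). Between 20 and 100 FPKM, 23 of 2662 were DETs (0.864%). Above 100 FPKM, 1 of 603 was a DET (0.166%), and it was a reconstructed transcript. This rise from low to intermediate levels did not appear over all fitted transcripts, of which 1.58% were DETs between 1 and 5 FPKM, 1.55% between 5 and 20 FPKM and 1.44% between 20 and 100 FPKM. The lower share above 100 FPKM did appear there, with 4 DETs of 633 (0.632%). Of the 246 DETs between 1 and 5 FPKM, 236 were under 1 FPKM in some mouse and were thus left out by the limit. At 5 FPKM or more in every mouse, 18 of 6339 transcripts were DETs, 11 higher and 7 lower, and none had an adjusted limma p below 0.05, while 220 had an unadjusted one.

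**Figure D2:**
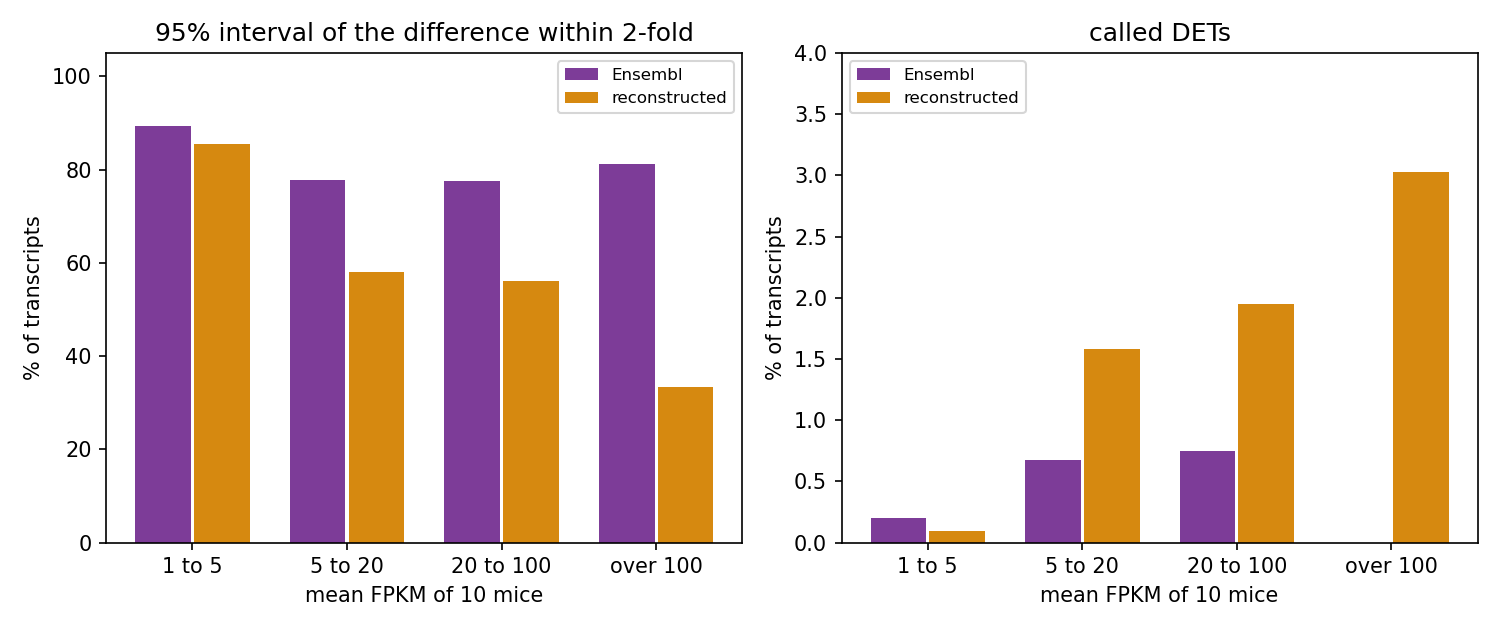
Left, percentage of transcripts whose 95% limma interval for AngII minus Control lay within 2-fold; right, percentage called DETs, by mean FPKM of the 10 mice, for Ensembl and reconstructed transcripts. Ensembl intervals within 2-fold stayed between 77.6% and 89.4% across levels, while the reconstructed share fell to 33.3% of the 33 transcripts over 100 FPKM, among which the bar on the right stands for 1 DET.

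ENSMUST00000174282 had the smallest p of the 15084 transcripts. Its FPKM was 1.53, 1.27, 2.69, 3.62 and 1.55 in Control mice 1 to 5 and 14.3, 15.3, 17.0, 10.6 and 23.7 in AngII mice 1 to 5. Every AngII mouse was thus above every Control mouse, and the lowest AngII value was well over the highest Control value. The means were 2.13 ± 0.997 FPKM (SD, n = 5) and 16.2 ± 4.81 FPKM (SD, n = 5), a 7.58-fold ratio. The difference on the log2(FPKM + 1) scale was 2.46 (95% interval 1.90 to 3.03, limma adjusted p = 0.0263). It was the only one of the 15084 transcripts with an adjusted p below 0.05. It lost that call without Control mouse 1, 3 or 5 and without AngII mouse 2 or 3, and also when the fit took in all transcripts with no filter on low values, while its difference stayed past 2-fold in each case.

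The second upregulated Ensembl transcript by p, ENSMUST00000167751, was low in all mice. Its FPKM was 1.33, 1.14, 1.12, 1.93 and 1.16 in Control mice and 3.60, 6.97, 3.24, 6.11 and 4.81 in AngII mice. The groups did not overlap, but Control values stood just above the limit of 1 FPKM that a transcript needed to be included. The difference was 1.32 on the log2(FPKM + 1) scale (95% interval 0.85 to 1.78) with a limma adjusted p of 0.383, short of the threshold.

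The downregulated Ensembl transcript with the smallest p was ENSMUST00000127590. Control mice had 6.95, 14.1, 4.34, 9.19 and 6.85 FPKM, and AngII mice had 2.77, 1.96, 2.47, 2.003 and 1.02 FPKM. All AngII mice were below all Control mice. The difference was -1.55 (95% interval -2.18 to -0.93, limma adjusted p = 0.656).

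ENSMUST00000030284 was next by p and had another pattern. Control mice lay close together at 34.7, 33.9, 33.5, 41.9 and 39.7 FPKM. AngII mice 2 to 5 lay closer still at 10.8, 11.1, 10.1 and 10.5 FPKM, and AngII mouse 1 was at 39.0, inside the Control range. The difference over all 10 mice was -1.34 (95% interval -2.08 to -0.60, limma adjusted p = 0.889), and without AngII mouse 1 its adjusted p fell below 0.05. No cause for the level of that mouse was tested.

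A 2-sided exact permutation test on the 4 Ensembl transcripts gave p = 0.00794 for the first 3, the smallest that 5 mice against 5 allow, and p = 0.0317 for ENSMUST00000030284. All were picked by their limma p, so these values do not add to it. Of the 85 DETs, 12 had groups that did not overlap (14.1%, close to the 13.0% of all 409 DETs).

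Among reconstructed transcripts, 2 upregulated and 2 downregulated DETs led by p. The first upregulated one was 3.86 to 5.35 FPKM in Control mice and 8.07 to 17.0 FPKM in AngII mice, with no overlap and a difference of 1.01. It stood at the fold change limit and fell under it without Control mouse 2, Control mouse 5 or AngII mouse 1. The second was at 1.33, 1.04, 4.29, 15.1 and 1.24 FPKM in Control mice 1 to 5 and 13.7 to 24.9 FPKM in AngII mice. Control mouse 4 was thus inside the AngII range, and the difference was 2.43.

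The first downregulated one was 11.1 to 35.7 FPKM in Control mice and 3.58 to 7.80 FPKM in AngII mice, with no overlap and a difference of -1.83. The second was at 15.5, 3.10, 18.3, 20.04 and 8.79 FPKM in Control mice and 1.06 to 4.17 FPKM in AngII mice, and its groups met only through Control mouse 2. Adjusted limma p-values of these 4 ran from 0.538 to 0.848.

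**Figure D3:**
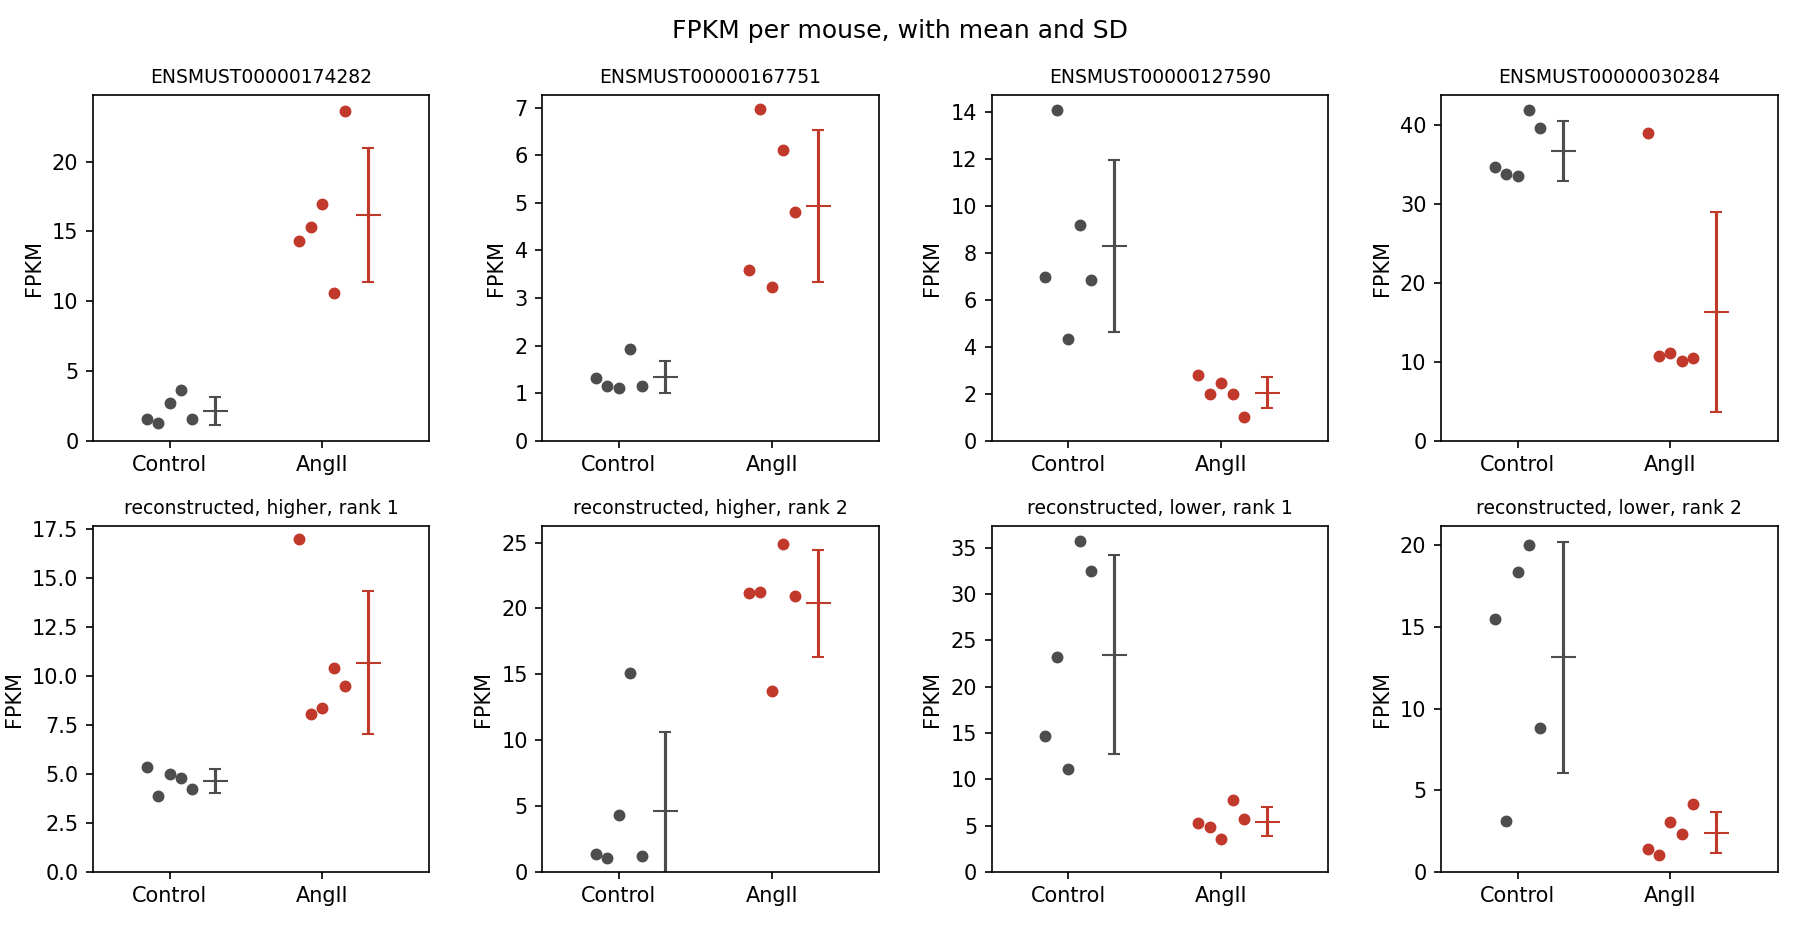
FPKM per mouse of the 4 Ensembl transcripts named (top) and of the 4 reconstructed transcripts described (bottom). Each panel has its own axis from 0, points are mice in order of number, and bars are the mean and SD of 5 mice, cut off at 0 in 1 panel. AngII mouse 1 stands within the Control range for ENSMUST00000030284, and Control mouse 4 within the AngII range for the second upregulated reconstructed transcript.

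Many DETs were uneven between mice of a group. In 58 of the 85 (68.2%), some of those described above included, FPKM spanned 4-fold or more within the Control or the AngII mice, against 18.1% of all 15084 transcripts. This contrast is partly built in, because the 2-fold rule for DETs favours transcripts that vary much between mice. The largest fall of an Ensembl transcript, -2.81, came from Control values of 20.4, 76.1, 81.0, 53.9 and 2.86 FPKM and AngII values of 2.06, 7.08, 3.72, 4.97 and 1.42 FPKM. Control mouse 5 was thus within the AngII range (limma adjusted p = 0.987). The second largest rise of an Ensembl transcript, 2.003, came from AngII mice 2, 4 and 5 at 144.9, 110.04 and 135.2 FPKM, while AngII mice 1 and 3 at 6.60 and 10.1 FPKM lay within the Control range of 5.84 to 19.0 FPKM. Its exact permutation p was 0.127. These 2 were singled out after their values were seen. Their Ensembl identifiers are consecutive, and whether both belong to 1 gene, and so share reads, could not be checked here.

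Of the 16 downregulated reconstructed DETs, 5 came from 1 StringTie locus, that is, 1 stretch of the genome with overlapping transcript models. Reconstructed transcripts of the 15084 came from 1853 loci, 1594 of which held 1 such transcript, and this locus held 9. The DET with the highest mean of all 85, at 145 FPKM, was among its 5. In Control mice that transcript was at 110, 164, 740, 92.1 and 82.3 FPKM, and in AngII mice at 16.1, 16.2, 182, 27.9 and 22.7 FPKM. Control mouse 3 was the highest of the Control mice and AngII mouse 3 the highest of the AngII mice, well apart from the rest in both groups. The same 2 mice were highest in each group for all 5 DETs of the locus, whose differences lay between -2.30 and -1.56 (limma adjusted p = 0.995 for each). This order of mice was not particular to the locus. It was also seen in 4 other DETs, 2 Ensembl and 2 reconstructed, all downregulated. The same mice will be highest in some DETs by chance, and this count was not compared with a share over all transcripts. Without Control mouse 3, 1 of the 5 was called, and without AngII mouse 3 all 5 were. Models of a locus share reads, so these 5 are not independent measurements, and the 16 downregulated DETs stand for fewer loci: the 21 reconstructed DETs of both directions came from 17. DETs of different loci were not always unlike either. On the log2(FPKM + 1) scale, the other DETs of the locus had Pearson's r of 0.915 to 0.957 with its highest DET. A reconstructed DET of another locus, picked as the most alike, had 0.961. The 17 loci are therefore not shown to be independent, and no cause was tested.

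As a whole, the 15084 transcripts did not part the groups. Correlation of log2(FPKM + 1) between 2 mice, across transcripts that are not independent replicates, had a median Pearson's r of 0.911 within Control mice, 0.912 within AngII mice and 0.912 between the groups. The first principal component (23.1% of the variance) ran from Control mouse 5 at -53.1 to AngII mouse 5 at 46.3, with the other mice of both groups between them. On the second component (14.2%), Control mice lay between -1.19 and 22.3 and AngII mice 1, 2, 4 and 5 between -35.5 and -16.3. AngII mouse 3 stood apart from these at 28.1, beyond all Control mice. The difference between the group means held 10.7% of the total variance of the 10 mice, close to the 11.1% that 1 of 9 degrees of freedom would hold with no difference between groups.

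**Figure D4:**
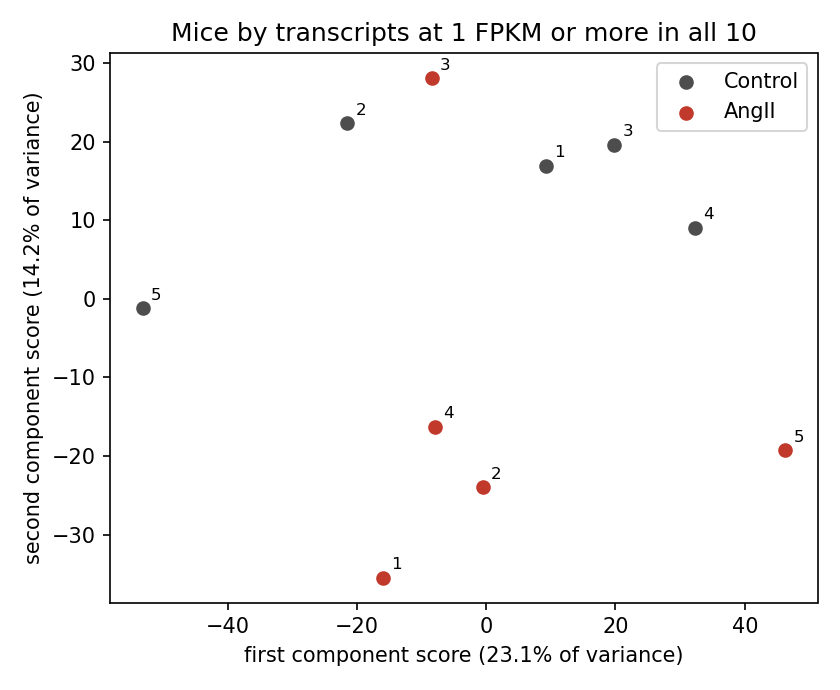
Scores of the 10 mice on the first and second principal components of log2(FPKM + 1) over the 15084 transcripts, with mouse numbers. The first component does not part the groups, and on the second AngII mouse 3 lies at 28.1, beyond all Control mice and apart from the other AngII mice.

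The count of DETs rose whichever mouse was left out, from 85 with all mice to between 89 and 141. A rise was thus not particular to any 1 mouse, though its size differed. Leaving out AngII mouse 3 gave the most, 82 upregulated and 59 downregulated, and raised the transcripts with an unadjusted p below 0.05 from 575 to 1064, but none then had an adjusted limma p below 0.05. Leaving out Control mouse 4 gave 73 upregulated DETs, and leaving out Control mouse 5 or AngII mouse 4 gave 71 each. Each of the 10 fits without 1 mouse called 56 to 72 of the 85 DETs again. All 10 fits called 35 of them, 19 upregulated and 16 downregulated.

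**Figure D5:**
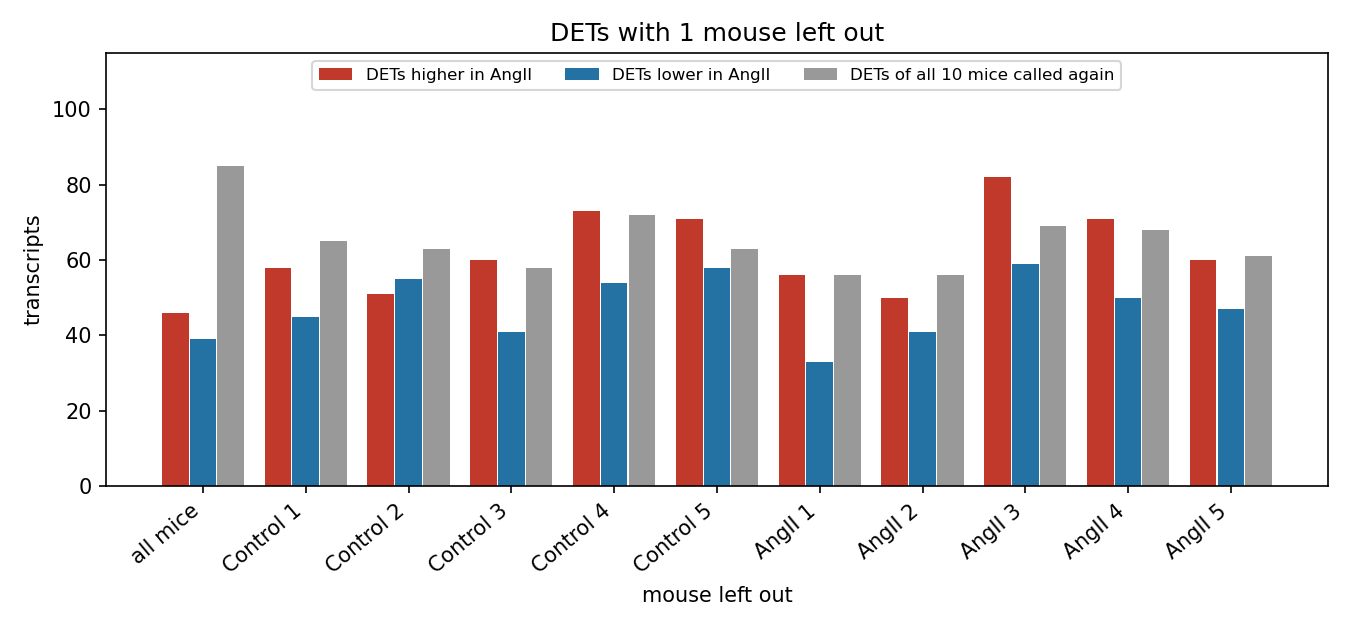
Number of DETs upregulated and downregulated in AngII mice, with all mice and with each of the 10 mice left out, and how many of the 85 DETs of all mice were called again. Upregulated DETs ran from 50 to 82 and downregulated ones from 33 to 59 when a mouse was left out, against 46 and 39 with all mice.

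At the edge of the limit, the lowest value of a transcript just included was 1.00002 FPKM, with group means of 2.19 FPKM in Control and 2.79 FPKM in AngII mice. The transcript just left out had a lowest value of 0.99989 FPKM and means of 2.06 and 1.46 FPKM.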

How the data were processed

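Abdominal aorta RNA of 5 Control and 5 AngII mice was analysed. The authors filtered reads with NGSQC (2.3.3), aligned them to GRCm38/mm10 with HISAT2 (2.1.0), and reconstructed and quantified transcripts with StringTie (1.3.3b). The deposited values were taken as FPKM per transcript, scaled by the authors for transcript length and mapped fragments, so no count test was run. The file headers do not name the unit, which was inferred from the StringTie step and from values that are not whole. The labels give rRNA depletion and the methods add poly(A) selection. Groups were taken from the sample labels.

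Transcripts that reached 1 FPKM in 5 or more mice were fitted with limma 3.58.1 (lmFit, eBayes with trend, R 4.3.3) on log2(FPKM + 1), without covariates, and p-values were adjusted by Benjamini-Hochberg over all of them. This scale understates changes of low transcripts. The fit was tested on simulated data. The transcripts described were any with an adjusted p below 0.05, the 2 DETs with the smallest p of each kind and direction, and the 5 highest in level. The limit, lists and tests were chosen with earlier results of these data known. The files pair no identifier with a gene, so gene lists, marker genes, sums per gene and sequences were not used here. Alternatives were another filter, minimum FPKM, pseudocount, scaling or variance model, and leaving out each mouse. Figures were drawn with matplotlib 3.10.9.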

Additional observations from a re-analysis of the deposited data

Results flagged for a closer look

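In 30 sets of 5 values from 1 group, the gap of the highest or lowest mouse to its nearest neighbour was compared with the whole range. It exceeded 0.71 of the range in 5 sets. About 1 in 20 would exceed it by chance if values were independent and normal, which is 1.5 of 30. The sets include FPKM of transcripts picked by p, which need not be so, and no excess is read from this. No explanation was tested.

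ENSMUST00000030284 stood at 39.0 FPKM in AngII mouse 1, with the remaining AngII mice at 10.1 to 11.1 FPKM. ENSMUST00000167751 stood at 1.93 FPKM in Control mouse 4, against 1.12 to 1.33 FPKM elsewhere in Control. The first upregulated reconstructed transcript reached 17.0 FPKM in AngII mouse 1, above 8.07 to 10.4 FPKM in AngII mice 2 to 5. The second reached 15.1 FPKM in Control mouse 4, above 1.04 to 4.29 FPKM in the rest of that group. The score on the first principal component was 46.3 in AngII mouse 5, and AngII mice 1 to 4 lay from -15.9 to -0.56.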

How the results depend on the processing

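The share of transcripts with an interval within 2-fold was added after seeing the data, and it stayed between 71.7% and 87.6% under all alternatives. With a pseudocount of 0.1 there were 73 DETs up and 59 down. With at least 5 FPKM in all mice there were 11 up and 7 down, and 0 with an adjusted limma p below 0.05 (220 unadjusted). With at least 0.5 FPKM there were 62 down. Without the filter on low values, 0 had an adjusted limma p below 0.05 (583 unadjusted). With 1 mouse left out, DETs numbered 50 to 82 up and 33 to 59 down, and 0 to 3 had an adjusted p below 0.05 (430 to 1064 unadjusted). Those 3, without AngII mouse 1, included ENSMUST00000030284. The cause of these shifts was not tested, beyond that both other FPKM limits change how many transcripts are counted. The other counts, under a fit of only these transcripts, the 75th percentile scaling, no trend or a robust trend, stayed within 1.5 times. Of 137 alternative values for the 8 transcripts described, 134 stayed past the fold change and unadjusted p, and those transcripts were chosen by p. No paired analysis was possible because mice of different groups carry unrelated numbers in the labels. Sums per gene were not run, since no identifier is paired with a gene. Read counts are unknown, so how far depth limits low transcripts could not be stated.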
